A study of Mus musculus with 8 samples.

Results

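Genes that report on BMP, TGF-beta and Wnt signalling, 9 in all, were read across the 8 libraries of a study of mouse alpha cells that overexpress the transcription factor Yy1. They were taken by symbol from the annotation of the Ensembl gene IDs, and all 9 of 9 were found among the 75078 genes of the count table. The members are Id1, Id2, Id3 and Id4, Smad6 and Smad7, and Axin2, Lef1 and Nkd1. BMP and TGF-beta ligands act through receptor kinases that phosphorylate Smad proteins, which enter the nucleus with Smad4 and switch on target genes. Among the most direct targets are the Id genes, whose products bind and block basic helix-loop-helix (bHLH) factors, and Smad6 and Smad7, inhibitory Smads that restrain the receptors. In canonical Wnt signalling, stabilised beta-catenin joins TCF and LEF factors on DNA and induces Axin2, Lef1 and Nkd1. Axin2 and Nkd1 dampen the pathway, while Lef1 is one of its own nuclear partners. YY1 is a zinc finger protein that activates or represses genes and is known to bind Smad proteins.

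The cells were aTC1-6, a mouse line with features of glucagon-secreting alpha cells, so all groups are 1 established line and hold no separate animals. A control group of 4 libraries received an empty plasmid (numbers 31, 32, 33 and 34) and 4 libraries received a Yy1-overexpressing plasmid (45, 46, 47 and 48). Transfection followed seeding by 24 h in both groups, the medium was DMEM (11 mM), and no time of harvest is stated. Nothing says that each library is a separate culture, so p-values measure only how these samples spread, and that spread may be technical. In bulk RNA, fewer cells of a type and less RNA per cell cannot be told apart. Each value also averages over all cells of a library, whether or not a cell took up the plasmid. A change limited to some cells would be diluted.

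Summed estimated counts ran from 20679804 in empty plasmid 33 to 33347445 in Yy1 plasmid 47. Levels, and the log2 ratios of Yy1 over control libraries (log2 fold changes), are on the scale of CPM, the counts in every 1000000 of the scaled library. Where a library shows 0 counts, as many as 3 remain possible, which corresponds to 0.147 CPM at the lowest depth and 0.0903 CPM at the highest. Yy1 itself went from 175.1 ± 5.33 to 5233 ± 464 CPM (SD, n = 4 per group), which checks the labels, although a count per gene cannot separate plasmid from endogenous transcript. All 14 alpha cell markers listed were expressed, with Gcg, the glucagon gene, at 21230 CPM in the control group. Of 27 markers of other islet, exocrine, stromal, endothelial and immune cells, 5 were at 0 in all 8 libraries and 10 were high enough to test. The 27 summed to between 22.5 and 24.3 CPM in the control libraries, against between 24.8 and 27.5 CPM in the Yy1 libraries, so the ranges did not overlap. Of the 10 tested markers, 3 had groups that did not overlap, beside 3.95% of all tested genes. A positive log2 fold change was found for 7 of the 10, with a median of 0.245 against -0.00249 over all tested genes. An edgeR adjusted p under 0.05 was found for 0 of the 10, beside 0.515% of all tested genes. The part of these markers in the members' values was not tested. Id genes are often high in endothelial cells. Among the endothelial markers listed, Cdh5, a defining endothelial cadherin, had 0.0269 CPM in the control group and Kdr, a VEGF receptor, had 0.0346 CPM. Both stood under the limit that a count of 0 allows in a single library. The list also holds Pecam1 and Plvap, whose values are not given here.

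None of the feedback genes high enough to test passed the test for a difference between the plasmids. Of the 9 members, 6 had enough counts to be tested, the 4 Id genes and both inhibitory Smads. Of these 6, 0 were called at an adjusted p under 0.05 (edgeR's quasi-likelihood test, Benjamini-Hochberg over 15916 genes), beside 0.515% of all tested genes (0.496% higher and 0.0188% lower). At an unadjusted p under 0.05 the count was also 0 of 6, beside 5.42% of all tested genes, and DESeq2 and limma-voom called 0 as well. The groups overlapped for all 6, while 3.95% of all tested genes had groups that did not overlap. Their median log2 ratio was 0.04, with 4 positive and 2 negative, against a median of -0.00249 and 48.6% positive over all tested genes.

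**Figure D1:**
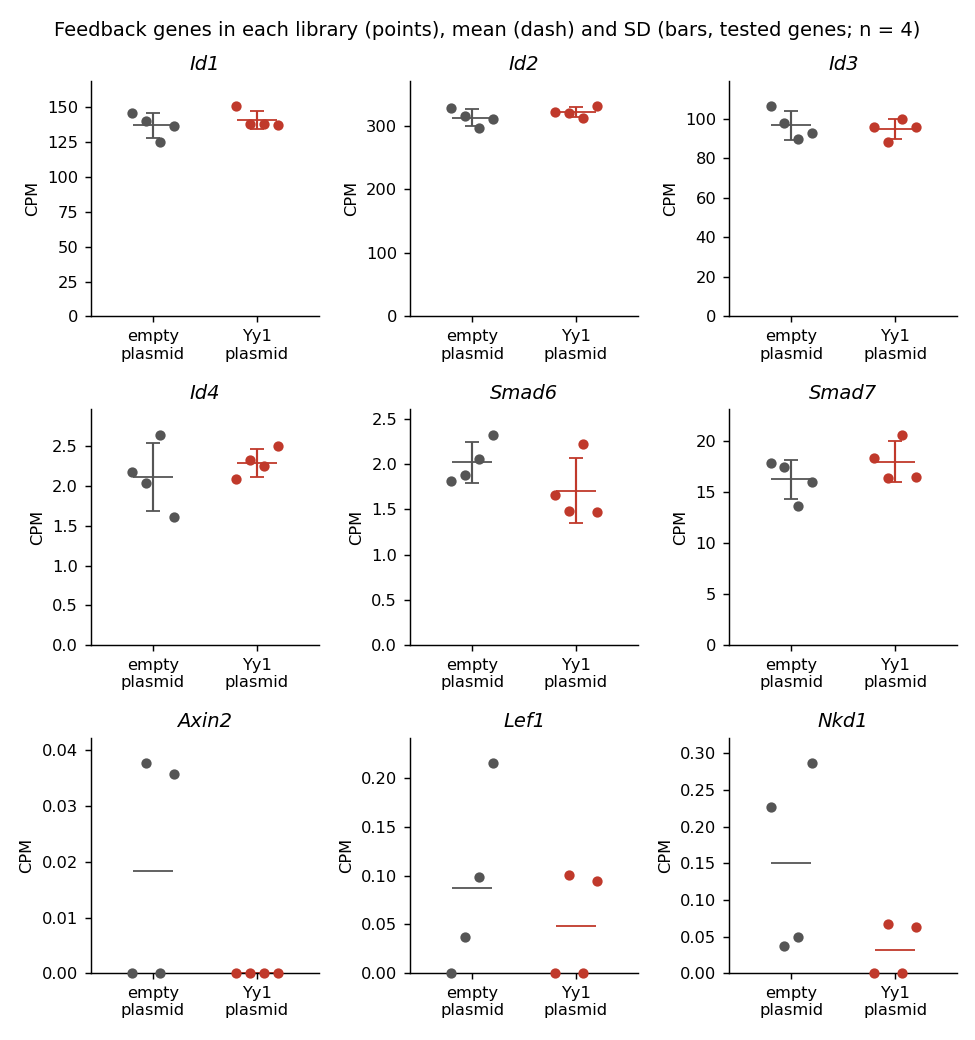
Level of each feedback gene (CPM, vertical axis, from 0) in each library with the empty plasmid (grey) and the Yy1 plasmid (red); dashes are group means and bars the SD of tested genes (n = 4). Id1, Id2 and Id3 form narrow bands that overlap between the groups, and Axin2, Lef1 and Nkd1 reach at most 0.286 CPM in any library.

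The promoters of the members were searched for 4 short elements. RefSeq windows of build GRCm38.p6, from 250 bases before to 50 after the start site, were found for 7 of 9 members and not for Id1 and Smad7. GTCTAGAC, the palindromic Smad box, occurred in 0.213% of 32851 windows, and GGCGCC, a GC element of BMP targets, in 11.9%. CTTTGAT, bound by TCF and LEF factors, occurred in 3.73%, and AANATGGC, a YY1 element, in 6.05%. Both strands were searched, and in the windows of the members no match overlapped a match of another element.

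Among the members, the Smad box palindrome was found in Smad6 and GGCGCC in Id2, Id4 and Lef1. No window of a member held CTTTGAT or AANATGGC. A match is a description of the letters and no evidence of binding. In Smad6 the match began 4 bases before the start site, on chr9:64022056-64022153 (minus strand), and it is shown because this Smad target encodes a Smad inhibitor. The other 3 are shown because they share an element at very different levels of expression. The stretch of Id2 lies on chr12:25096273-25096342 (minus strand), that of Id4 on chr13:48260923-48261018 (plus strand) and that of Lef1 on chr3:131110061-131110156 (plus strand). Capitals mark the matched element.
Smad6: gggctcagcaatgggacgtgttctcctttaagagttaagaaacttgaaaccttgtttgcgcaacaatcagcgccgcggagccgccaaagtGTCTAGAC
Id2: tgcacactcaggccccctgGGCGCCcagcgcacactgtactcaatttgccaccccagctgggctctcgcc
Id4: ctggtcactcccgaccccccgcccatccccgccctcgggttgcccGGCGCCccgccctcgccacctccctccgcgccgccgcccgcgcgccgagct
Lef1: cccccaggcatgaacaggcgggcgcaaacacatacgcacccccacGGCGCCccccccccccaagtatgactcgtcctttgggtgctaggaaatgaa

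Id1, an inhibitor of bHLH factors that is induced directly by BMP-activated Smads, was abundant in both groups. Its levels were 145.8, 140.2, 125 and 136.6 CPM in the control libraries, against 150.5, 137.9, 137.5 and 137.4 CPM in the Yy1 libraries, in the order of the library numbers. Empty plasmid 33 was the lowest of the 8 and Yy1 plasmid 45 the highest, and the other libraries of both groups lay between them. The log2 fold change was 0.04 (SE 0.0467; edgeR adjusted p = 0.993), with a 95% interval from 0.961-fold to 1.10-fold.

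Id2, which also restrains bHLH factors and is widely expressed, was the most abundant member. It stood at 329, 315, 297 and 312 CPM in the control libraries, against 322, 321, 312 and 331 CPM in the Yy1 libraries. Again empty plasmid 33 was the lowest library. The estimate of 0.04 on the log2 scale (SE 0.0398; edgeR adjusted p = 0.993) had the narrowest interval of the 6 tested members, from 0.970-fold to 1.09-fold.

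Id3, the third BMP-responsive Id gene, had values of 106, 98.0, 89.9 and 92.8 CPM in the control libraries, against 96.0, 88.1, 100.1 and 96.0 CPM in the Yy1 libraries. The highest library was thus empty plasmid 31 and the lowest Yy1 plasmid 46. Its log2 fold change was -0.03 (SE 0.0509; edgeR adjusted p = 0.997; interval from 0.912-fold to 1.06-fold). For Id1, Id2 and Id3 alike, the intervals lay between 0.912-fold and 1.10-fold.

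Id4, a family member best known in neural and mammary cells, was far rarer than the other 3. It had 67, 54, 54 and 45 counts in the control libraries, against 68, 69, 75 and 80 in the Yy1 libraries, or 2.12 ± 0.427 and 2.29 ± 0.175 CPM (SD, n = 4). The control libraries enclosed all 4 Yy1 libraries, since they ran from 1.61 CPM in number 34 to 2.65 CPM in number 33. The log2 fold change was 0.13 (SE 0.176; edgeR adjusted p = 0.995), and at this depth the interval reached from 0.848-fold to 1.41-fold. It was 0.0143 on the log2 scale without empty plasmid 34 and 0.239 without empty plasmid 33. Summed over the family, the 4 Id genes made up 549 ± 28.4 CPM in the control group and 560 ± 10.7 CPM in the Yy1 libraries (SD, n = 4), of which Id2 gave between 56.4% and 58.4% in each library.

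Smad7, an inhibitory Smad that turns off TGF-beta and activin receptors and is induced by the signal it limits, was expressed at a moderate level. Its values were 17.9, 17.5, 13.6 and 16.0 CPM in the control libraries, against 18.4, 16.4, 20.6 and 16.4 CPM in the Yy1 libraries. The groups overlapped, with the lowest value in empty plasmid 33 and the highest in Yy1 plasmid 47. The log2 fold change was 0.14 (SE 0.0875; edgeR adjusted p = 0.953; interval from 0.970-fold to 1.25-fold). Without Yy1 plasmid 47 it was 0.0652, and without empty plasmid 33 it was 0.071.

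Smad6, which preferentially blocks BMP receptors and Smad1 and Smad5, was rare, with a negative estimate. Counts were 56, 50, 42 and 65 in the control libraries, against 54, 44, 74 and 47 in the Yy1 libraries, or 2.02 ± 0.228 and 1.71 ± 0.355 CPM (SD, n = 4). Below every control library lay 3 of the 4 Yy1 libraries, while Yy1 plasmid 47, at 2.23 CPM, lay below only empty plasmid 34. The estimate of -0.24 on the log2 scale (SE 0.189; edgeR adjusted p = 0.980) had an interval from 0.647-fold to 1.11-fold. On the log2 scale this was the widest interval of the tested members. Without Yy1 plasmid 47 the estimate was -0.39. On log2(CPM + 1), an exact permutation test with 70 arrangements and a smallest possible two-sided p of 0.0286 gave a p of 0.143 for Smad6 and of 0.314 for Smad7.

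The 3 Wnt feedback genes were close to silent in both groups. Axin2, a scaffold of the beta-catenin destruction complex and the most general readout of canonical Wnt signalling, had 0, 1, 0 and 1 counts in the control libraries, against 0 counts in all 4 Yy1 libraries. Lef1, a DNA-binding partner of beta-catenin, had 0, 1, 2 and 6 counts and then 0, 3, 0 and 3. Nkd1, a Dishevelled-binding inhibitor, had 7, 1, 1 and 8 counts and then 0, 2, 0 and 2.

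These counts were too few for the test, and the exact permutation test gave two-sided p values of 0.429 for Axin2, 0.543 for Lef1 and 0.171 for Nkd1. Axin2 was at or under the limit of 3 counts in both groups, so no fold is given. The ratio of summed CPM, Yy1 over empty, was 0.553 for Lef1 (exact 95% interval from 0.162 to 1.74) and 0.195 for Nkd1 (from 0.0478 to 0.598). Those intervals cover counting error only. For Nkd1 the control libraries themselves ran from 1 to 8 counts, and Yy1 plasmid 46 and 48, with 2 counts each, lay above the control libraries with 1. When no filter was applied, edgeR gave Nkd1 an unadjusted p of 0.0337 and an adjusted p of 0.736.

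Per kilobase of the longest annotated transcript, the members spanned a wide range in the control group. Id2 led with 159 ± 6.59 CPM per kb, followed by Id1 with 118 ± 7.58 and Id3 with 75.7 ± 5.65 CPM per kb (SD, n = 4). The ranges of these 3 did not overlap, and they lay above 98.1%, 97.2% and 94.8% of all tested genes. Smad7 came next at 3.79 ± 0.448 CPM per kb, above 36.1% of tested genes. Smad6 (0.680 ± 0.0766 CPM per kb) and Id4 (0.550 ± 0.111 CPM per kb) did not differ beyond the spread of their libraries. At the bottom stood Nkd1 (0.0368), Lef1 (0.0240) and Axin2 (0.00431 CPM per kb). The control libraries of Lef1 (0 to 0.0587 CPM per kb) overlapped those of both neighbours. Nkd1 (0.00922 to 0.0702) and Axin2 (0 to 0.00884 CPM per kb) met at 1 count in empty plasmid 32. The small gap between their ranges comes only from the transcript lengths, 4.08 kb for Nkd1 and 4.26 kb for Axin2. In the Yy1 libraries the means of Id4 (0.596 ± 0.0455) and Smad6 (0.575 ± 0.119 CPM per kb) stood in the other order. They did not differ beyond the spread of their libraries. Lef1 (0.0133) and Nkd1 (0.00797 CPM per kb) also changed order, on only 6 and 4 summed counts, and Axin2 was at 0.

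**Figure D2:**
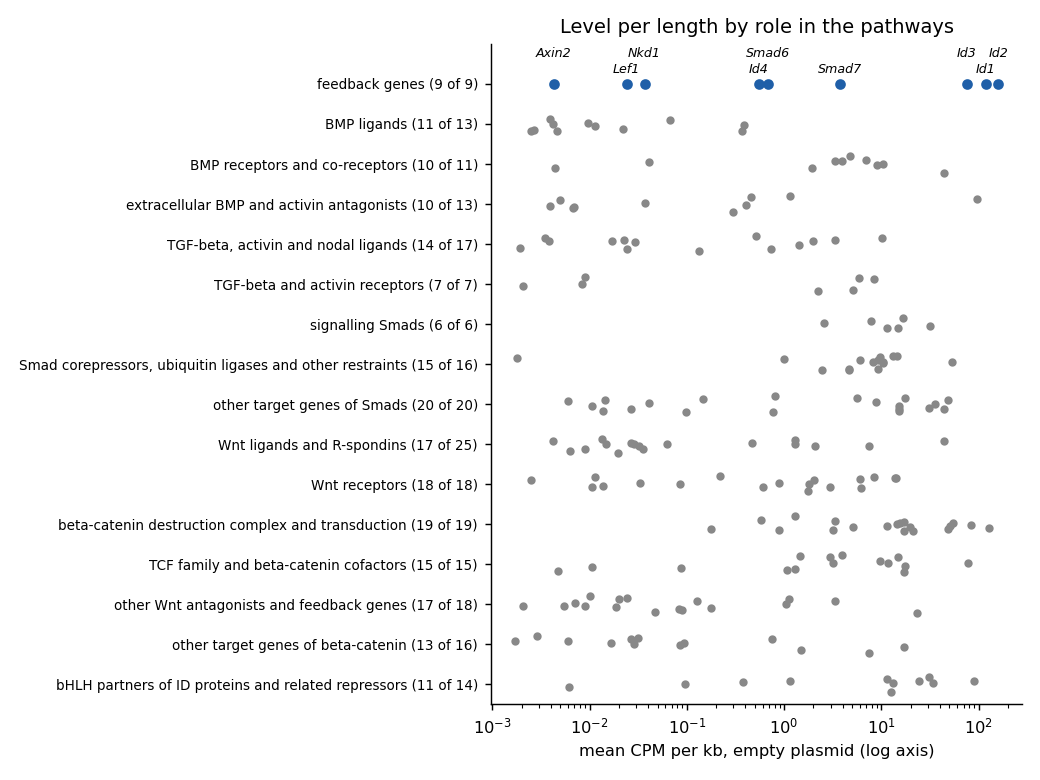
Mean level per kilobase with the empty plasmid (log axis) for the feedback genes (blue) and for genes listed by role in the pathways (grey); each point is a gene, genes at 0 are not drawn, and the numbers in brackets give genes drawn of genes in the table. Id1, Id2 and Id3 lie at 75.7 CPM per kb or above, while Axin2, Lef1 and Nkd1 lie at 0.0368 CPM per kb or below.

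Levels differed widely among members with the same element. GGCGCC was present in Id2, the most abundant member, in Id4, a rare one, and in Lef1, which was near silent, while Id3, Axin2 and Nkd1 had none of the 4 elements. The GC content of each gene's first window lay between 58.3% in Nkd1 and 73.3% in Id4, above the median of 52.7% over all windows, and 2 further windows of Lef1 lay below it at 51.7% and 43.7%.

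Of the 6 tested members, 4 shared 1 order of the control libraries. Id1, Id2, Id3 and Smad7 were each highest in empty plasmid 31, then 32, then 34, and lowest in 33. The order compared is that of Id1, so its own match was fixed in advance and the count is no test. This order was found in 4.79% of the 8484 tested genes with an average log2 CPM of at least 4. Id4 and Smad6, at averages of 1.18 and 0.9435, are not among those 8484 genes. Empty plasmid 33 is also the smallest library, and it was the lowest of all 8 for 20.5% of those genes, more often than any other library, and for 3 of the 6 tested members. With all libraries thinned to its depth, the log2 fold changes were 0.03 for Id1, 0.05 for Id2, -0.02 for Id3 and 0.145 for Smad7. Without library 33 they were -0.000627 for Id1, 0.01 for Id2, -0.06 for Id3 and 0.07 for Smad7, none of them called. Id4 and Smad6 did not share the order.

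**Figure D3:**
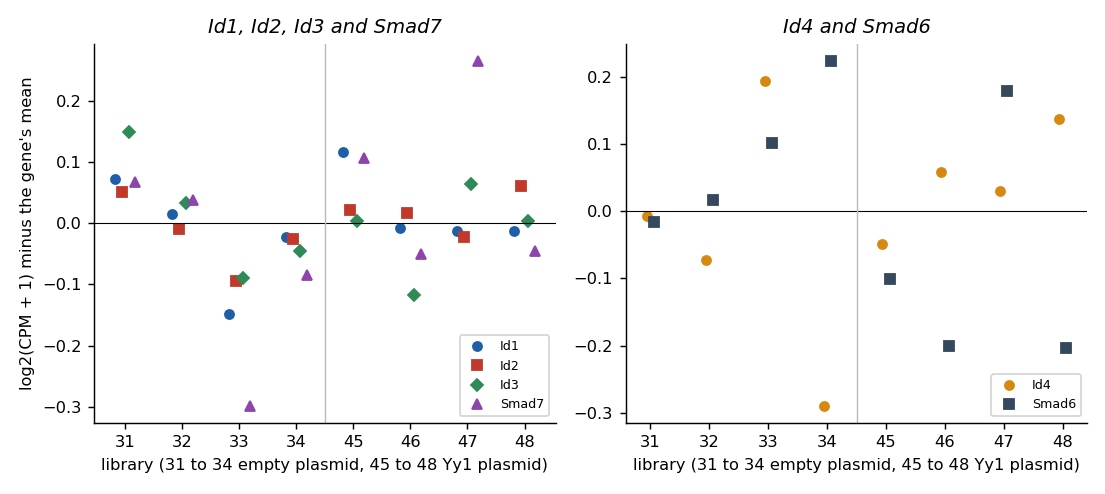
Each library's log2(CPM + 1) minus the gene's mean over all 8 libraries (vertical axis), for libraries 31 to 34 (empty plasmid) and 45 to 48 (Yy1 plasmid). In library 33 the points of Id1, Id2, Id3 and Smad7 lie below 0 together, while Id4 and Smad6 lie above it.

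By the rule for genes most like Id1, the smallest root mean square difference of centred log2(CPM + 1) over the 8 libraries belonged to Manf, which encodes a secreted factor of the endoplasmic reticulum, and Anapc11, a subunit of the anaphase-promoting complex. Their differences from Id1 were 0.0243 and 0.0254, where the median of 8396 candidate genes was 0.0966. A gene that did not vary at all would differ from Id1 by 0.0726. Manf stood at 266.5, 252.6, 238.3 and 248.9 CPM in the control libraries, against 272.1, 251.2, 255.8 and 251.5 CPM in the Yy1 libraries. Its lowest library was 33 and its highest 45, which follows from the choice by likeness to Id1 and is no further result.

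A rare noncoding gene on the opposite strand of Id4 had higher counts in the Yy1 libraries. Gm49291 is annotated as a long intergenic RNA, and 171 of its 2312 exon bases lie opposite exons of Id4. It had 6, 0, 0 and 2 counts in the control libraries, against 46, 28, 25 and 24 in the Yy1 libraries. Every Yy1 library thus lay far above every control library. The mean went from 0.0666 ± 0.0919 to 0.965 ± 0.311 CPM (SD, n = 4), a log2 ratio of 3.61 (SE 0.532; edgeR adjusted p = 0.000396). The ratio of summed CPM was 12.8, with an exact 95% interval from 6.27 to 30.2 for counting error only. Leaving out 1 library gave log2 fold changes from 3.22 to 4.97. The lowest was without empty plasmid 32 (edgeR adjusted p = 0.00195). The highest was without empty plasmid 31, which held 6 of the 8 control counts (edgeR adjusted p = 0.000225).

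Gm49291 was singled out after its values were seen, among the annotated genes within 10 kb of the members. There were 11 such genes, of which 7 were in the table and 3 were tested, and Gm49291 was the 1 called. In all tested genes 0.496% were called higher. The other tested neighbours were Gm20544, on the opposite strand near Smad7 (log2 fold change 0.19, SE 0.124, edgeR adjusted p = 0.956), and Hadh, a fatty acid oxidation enzyme next to Lef1 (-0.03, SE 0.0439, edgeR adjusted p = 0.997). The libraries were made with a strand-keeping kit, but the strand setting of the counting is not given in the sources used here. Without it, reads of the shared bases cannot be assigned to Id4 or Gm49291, and both values are uncertain to that extent. The longest shared stretch is 108 bases on chromosome 13 (build GRCm38), opposite bases 604 to 711 of the Id4 transcript and inside its coding sequence. It is shown on the strand of Gm49291 because a read from it is assigned to either gene by strand alone.
Gm49291: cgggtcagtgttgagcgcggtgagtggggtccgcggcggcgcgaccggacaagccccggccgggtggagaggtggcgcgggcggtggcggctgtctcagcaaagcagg

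**Figure D4:**
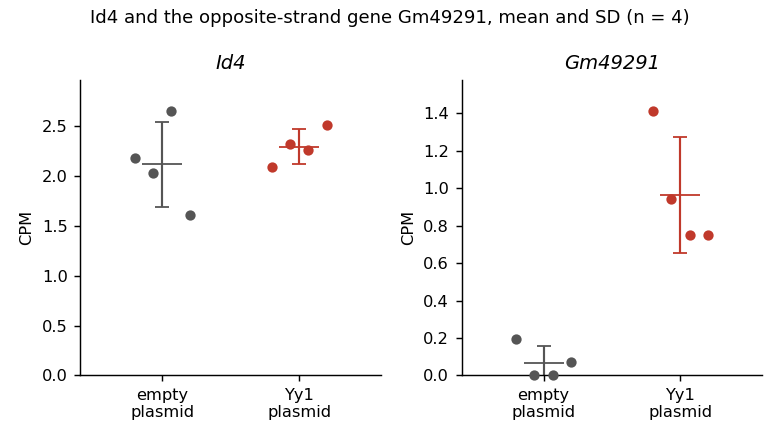
Levels of Id4 and of the opposite-strand gene Gm49291 (CPM, vertical axes from 0) in each library; dashes are means and bars the SD (n = 4). Id4 libraries overlap between the plasmids, while all 4 Yy1 libraries of Gm49291 lie between 0.752 and 1.41 CPM, above the highest control library at 0.195 CPM.

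The genes around the members were read from 15 lists by role, with 229 distinct genes of which 129 were tested. In these lists 0 genes were called by edgeR, DESeq2 or limma-voom, where edgeR called 0.515% of all tested genes. An unadjusted edgeR p under 0.05 was found for 6, or 4.65%, beside 5.42% of all tested genes. Positive log2 fold changes numbered 67 and negative ones 62, with a median of 0.00544, where 48.6% of all tested genes were positive. An absolute log2 fold change under 0.2 was found for 89.1% of them, against 83.4% of all tested genes. Without a filter 215 were tested and 1 was called, Gdf1, whose counts came from a single library.

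Ligands were mostly rare. Of 13 BMP ligands 2 were tested, Bmp7 with a log2 ratio of 0.26 (SE 0.196) and Bmp2 with -0.17 (SE 0.225). Of 17 genes in the list of TGF-beta, activin and nodal ligands 7 were tested, with 5 positive. That list also holds genes of latent TGF-beta binding proteins (Ltbp1, Ltbp2, Ltbp3 and Ltbp4), so these counts are not of ligands alone. Tgfb1, which encodes the founding TGF-beta ligand, had 8, 6, 7 and 15 counts in the control libraries, against 25, 19, 15 and 21 in the Yy1 libraries. The groups met at 15 counts and overlapped in CPM, and the log2 ratio of 0.87 (SE 0.357; edgeR adjusted p = 0.733) was not called. Tgfb3 had 0.33 (SE 0.182).

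Most BMP receptors and all signalling Smads were expressed well enough to test, and none was called. Of 11 BMP receptors and co-receptors 8 were tested, with 4 positive and 4 negative. Bmpr1a, a type I BMP receptor, gave a log2 ratio of -0.06 (SE 0.0474) and Acvr2b, a type II receptor shared by activins and BMPs, had 0.19 (SE 0.108). Of 7 TGF-beta and activin receptor genes 4 were tested, with the type I receptors Tgfbr1 at -0.03 (SE 0.0504) and Acvr1b at 0.02 (SE 0.0582). Tgfbr2, the type II receptor that TGF-beta itself needs, was named for its role and not by the rule, and stood at 0.0722 CPM in the control libraries, against 0.03055 CPM in the Yy1 libraries, too low to test. The type II BMP receptor Bmpr2, named likewise, stood at 88.9 and 94.7 CPM. All 6 signalling Smads were tested, with 2 positive and a median of -0.03. Smad2 had -0.04 (SE 0.0404) and Smad3 had -0.08 (SE 0.0775), both carriers of TGF-beta and activin signals.

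No restraint and no other target of Smads was called. Of 13 extracellular BMP and activin antagonists 5 were tested, with 3 positive. Chrd, which encodes the BMP trap chordin, gave a log2 ratio of 0.24 (SE 0.115; edgeR adjusted p = 0.909), and Fst, which encodes follistatin, had -0.39 (SE 0.252). Of 16 Smad corepressors, ubiquitin ligases and other restraints 14 were tested, evenly split by sign, with Trim33 at -0.07 (SE 0.0460) and the phosphatase gene Ppm1a at -0.06 (SE 0.0400). Of 20 other Smad targets 14 were tested, with 6 positive and a median of -0.01. Ccn2, a matricellular protein gene induced by TGF-beta and YAP, stood at 39.2, 38.6, 35.9 and 36.9 CPM and then at 44.4, 39.2, 40.1 and 40.2 CPM. Its groups did not overlap, with 39.18 CPM the highest control value and 39.22 CPM the lowest Yy1 value, and the log2 estimate of 0.12 (SE 0.0520; edgeR adjusted p = 0.826) was not called.

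Wnt components were expressed around the silent readouts. All 19 genes of the destruction complex and transduction list were tested, with 9 positive and a median of -0.00515, and Frat1 (0.57, SE 0.335) and Frat2 (-0.42, SE 0.218), both GSK3-binding proteins, had the smallest p. Of 18 receptors 13 were tested, with 10 positive. Among them Lrp5, a Wnt co-receptor, had 52, 52, 45 and 53 counts and then 52, 42, 52 and 40. The groups did not overlap in CPM, and the log2 ratio of -0.40 (SE 0.185; edgeR adjusted p = 0.895) was not called. Fzd3 had 0.09 (SE 0.114). Of 25 genes in the list of Wnt ligands and R-spondins 6 were tested, with Rspo4, an R-spondin, at 0.29 (SE 0.148) and Porcn, which acylates Wnts, at -0.17 (SE 0.116).

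Nuclear cofactors and other Wnt targets gave no call either. Of 15 TCF family and cofactor genes measured, 12 were tested, with 4 positive, and Pygo2 had -0.11 (SE 0.0492; edgeR adjusted p = 0.895) and Tle2, a Groucho corepressor, -0.16 (SE 0.0764; edgeR adjusted p = 0.909). Of 18 other Wnt antagonists and feedback genes 5 were tested, with Shisa2 at 0.29 (SE 0.162) and Apcdd1, a membrane inhibitor of Wnt, at 0.04 (SE 0.0777). Of 16 other beta-catenin targets 6 were tested, with Myc at 0.40 (SE 0.203) and Sox4 at 0.08 (SE 0.0486). Of 14 bHLH partners of the ID proteins and related repressors 9 were tested, with 3 positive. Hes6 had -0.12 (SE 0.0744) and Hey1, which is also a BMP target, had -0.09 (SE 0.0576).

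**Figure D5:**
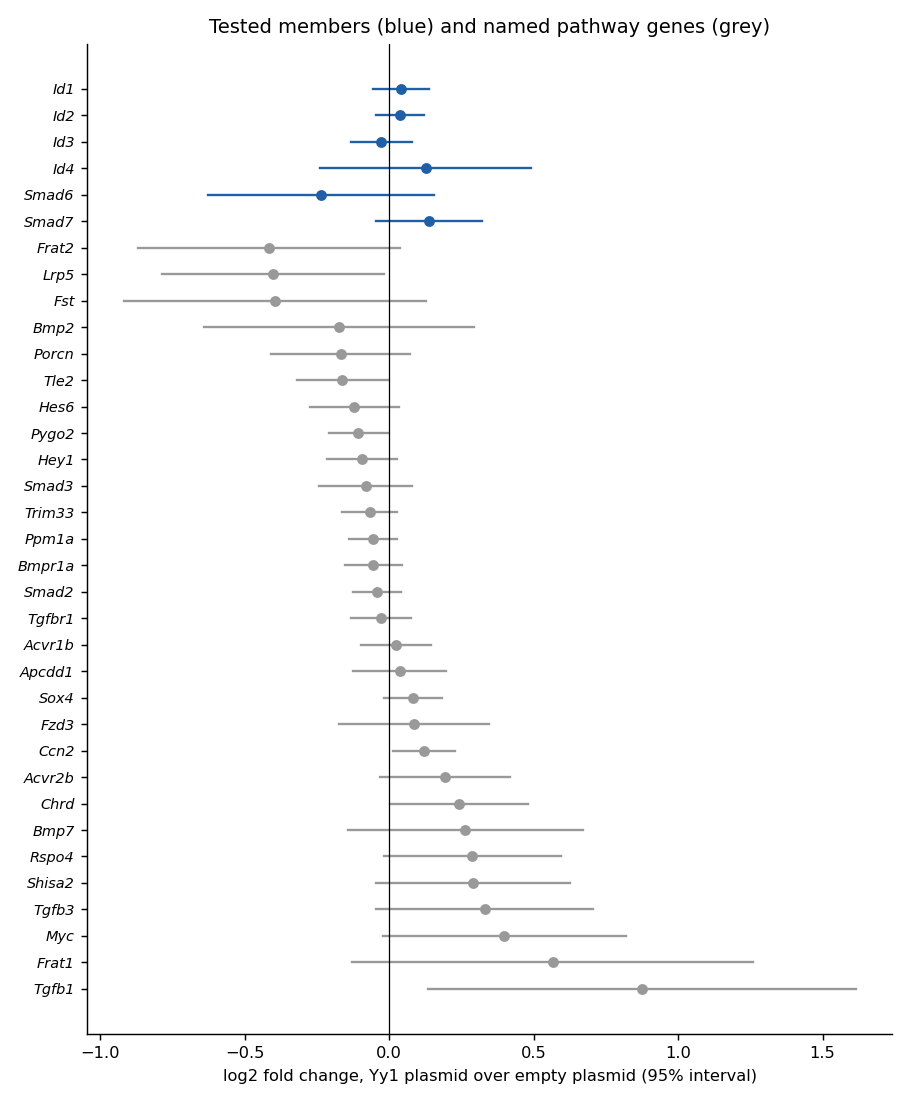
Log2 fold change of the 6 tested feedback genes (blue) and of the pathway genes named in the text by the rule (grey), Yy1 plasmid over empty plasmid, with 95% intervals that are not adjusted for the number of genes. All 6 member intervals include 0, and the widest intervals belong to rare genes such as Tgfb1 and Frat1.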

How the data were processed

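Poly(A)-selected, strand-keeping libraries were made from 8 samples, per the labels' protocols. Reads were handled with fastp and kallisto and the build GRCm39, per the submitters' processing notes, which list no versions. The authors deposited expected counts per Ensembl gene, estimated and partly fractional, which were rounded to whole numbers here. GENCODE mouse release 21 (GRCm38) gave symbols for 48278 of 75078 IDs, neighbours and transcript lengths; 2 listed symbols were not matched.

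Counts were filtered with filterByExpr (minimum count 10, total 15), normalized with TMM factors, and compared in edgeR 4.0.16 under R 4.3.3 (quasi-likelihood, two-sided, adjusted p under 0.05), with limma 3.58.1 and DESeq2 1.42.0 as alternatives. The code was tested on simulated data. Replicate pairs differed by more than sampling noise (chi-square per degree of freedom from 2.87 to 13). The pairs with empty plasmid 33 had the largest values (8.5, 13 and 10.5), and all other pairs lay between 2.87 and 6.57.

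The members and lists were chosen with earlier results of these data known. Named genes are the members, Yy1, the 2 genes of each list with the smallest p and those most like Id1. A gene that the rule names is not reported here. Axin2 was not tested, so no genes like it are given.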

Additional observations from a re-analysis of the deposited data

Results flagged for a closer look

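In 90 groups of 4 libraries, from 45 genes, a single library stood far from the other 3 in 5 cases, and chance alone gives about 1 such case in 20 groups. Among the members this was Id1, at 150.5 CPM in Yy1 plasmid 45 against a group median of 137.7 CPM. Tgfbr1 was low in the same library, at 44.08 CPM against a median of 48.94 CPM, and Hes6 was low in Yy1 plasmid 48, at 15.84 against 18.7 CPM. In empty plasmid 31, Smad3 was high at 15 CPM against a median of 12.73 CPM, and Mafa, a beta cell factor, was low at 0.0974 CPM (3 counts) against 0.3305 CPM.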

How the results depend on the processing

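No member was called in any of 17 other settings, which changed the scaling, the filter, the tool or the depth, or left out Yy1 or 1 library. No paired analysis was possible because the libraries of the 2 groups share no replicate number. Over all genes, 79 were called higher and 3 lower. With a filter of 1 CPM in 4 libraries 52 were higher. With no filter 151 were higher and 23 lower, and Smad7 (unadjusted p = 0.0407) and Nkd1 (0.0337) were the 2 members under an unadjusted p of 0.05. DESeq2 called 5 lower and thinning to the smallest library left 1 lower. Leaving out 1 library gave 60 to 83 higher and 2 to 7 lower. Of 706 values of named genes, 699 kept direction and side of the threshold and 7 changed sign, all of them not called: Id3 without empty plasmid 31 (0.0202) and without Yy1 plasmid 46 (0.00626), Id1 (-0.000627), Acvr1b (-0.00342) and Apcdd1 (-0.00317) without empty plasmid 33, and Tgfbr1 without empty plasmid 34 (0.00803) and without Yy1 plasmid 45 (0.00769). Leaving out 1 library, these genes ranged from -0.000627 to 0.0689 (Id1), -0.0593 to 0.0202 (Id3), -0.0507 to 0.00803 (Tgfbr1), -0.00342 to 0.0719 (Acvr1b) and -0.00317 to 0.0688 (Apcdd1). The cause was not tested. Gm49291 was called wherever it was tested (adjusted p from 1.12e-11 to 0.00426) and was not tested with the 1 CPM filter, an alternative chosen, like all for this gene, after seeing the data. Depth limits Id4 and Smad6, at about 2 CPM, and left Axin2, Lef1 and Nkd1 untestable with the main filter.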
